A study of Rattus norvegicus with 3 samples.

Results

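MFH1NR, a rat line of malignant fibrous histiocytoma (MFH), was set against a monolayer culture of rat bone marrow mesenchymal stem cells (MSCs) on whole genome arrays with one fluorescent dye, 1 array for each, which are 2 of the 3 arrays of the series. The third array carried COS1NR, a rat osteosarcoma line, and served to separate what was particular to MFH1NR from what both sarcoma lines showed. All 3 samples were of the strain F344. Both lines came from tumors induced with 4-HAQO, a chemical carcinogen, and carry mutated p53. The MSCs were cells of femoral marrow that adhered to plastic, not sorted by surface markers, and were grown in medium with more serum than the lines. Each line stands for 1 tumor. No treatment, time series or replicate was part of the design, so no difference could be tested, and the spread between cultures of the same kind is unknown.

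MFH, now mostly called undifferentiated pleomorphic sarcoma, is a soft tissue tumor of spindle-shaped and pleomorphic cells that lack a clear line of differentiation, and mesenchymal progenitors have been discussed as its cell of origin. Marrow MSCs can form bone, fat and cartilage in culture, and they express a typical set of surface proteins, matrix collagens, proteases and cytokines. Plastic-adherent marrow cultures that were not sorted also carry macrophages and other blood-derived cells.

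The comparison took in all probes that were not controls, 40816 after spots called outliers were left out, of which 16745 could be named for 13301 genes. Between 24551 and 25899 spots per array were well above background. Values are the processed intensities of the scanner software, and each ratio was computed after division by the 75th percentile of its array (994 in MFH1NR, 589 in MSCs and 774 in COS1NR), so intensities of different arrays are not directly comparable without it. A spot not well above background is called dim here. Where 1 array of a pair was dim, the ratio is a bound, given as "at least". Spots of a probe printed 10 times on an array had a median SD of 0.0470 (MFH1NR), 0.0577 (MSCs) and 0.0481 (COS1NR) on the log2 scale, which covers printing and scanning only. For 1981 genes with further probes, the log2 ratios of MFH1NR to MSCs from 2 probes lay a median of 0.32 apart, and for 1 gene in 10 over 1.01 apart. The arrays of the sarcoma lines lay on 1 slide and that of MSCs on another, so for ratios to MSCs the slide cannot be told apart from the cell type, while the ratio of MFH1NR to COS1NR lies within a slide. In such mixed samples, fewer cells of a type and less RNA per cell cannot be told apart either.

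MFH1NR and the MSCs differed by at least 2-fold at about 4 in 10 genes. Among 9823 genes measured on at least 1 of the 2 arrays, 1901 (19.4%) were higher and 2122 (21.6%) were lower in MFH1NR, and 5800 lay within 2-fold. Bounds made up 302 of the higher genes and 729 of the lower genes. The median log2 ratio over all these genes was 0.02. Over all 26375 probes measured, named or not, 5306 (20.1%) were higher and 5028 (19.1%) lower. COS1NR, set against the same MSC array, had 2006 genes higher (20.7%) and 1941 lower (20%) of 9710. The same direction in both lines was found for 1078 of the higher and 1294 of the lower genes, and since both lines share the MSC array, any value that is unusual in MSCs enters both counts.

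A smaller set of genes was particular to the MFH1NR array. A gene was counted as higher in MFH1NR alone if it was at least 2-fold above both other arrays while COS1NR was not 2-fold from MSCs, and this held for 412 of 10010 genes detected on any array (4.12%). By the mirror rule 397 genes (3.97%) were lower in MFH1NR alone. Opposite directions against MSCs, MFH1NR one way and COS1NR the other, were found for 224 genes (2.24%). Well above background on MFH1NR only were 300 genes (3%), and 372 (3.72%) were well above background on both other arrays and dim in MFH1NR. For comparison, 187 genes were detected on COS1NR only and 588 on MSCs only. Against COS1NR itself, 1171 of 9422 genes were higher in MFH1NR (12.4%) and 1420 lower (15.1%).

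**Figure D1:**
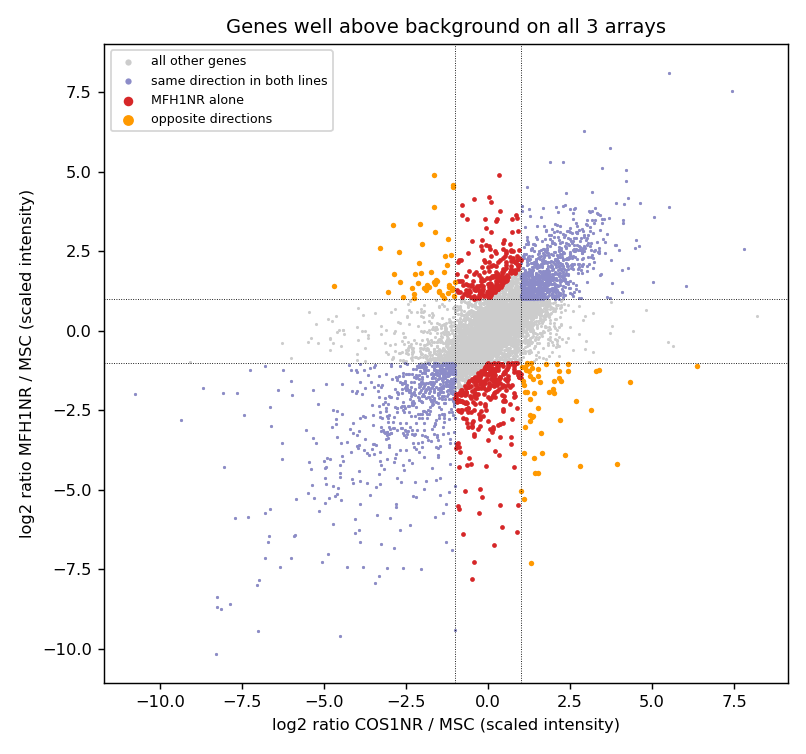
Log2 ratio of MFH1NR to MSCs (vertical) against that of COS1NR to MSCs (horizontal) for the 7932 genes well above background on all 3 arrays, 1 point per gene, with dotted lines at 2-fold. The 510 genes that differed in MFH1NR alone lie above and below the center, the 102 with opposite directions in the upper left and lower right, and the 1656 with the same direction in both lines in the other corners, and both axes share the MSC array.

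Gene lists for cell types, pathways and gene families, 44 in all, were then read one by one. Their counts stand against 19.4% higher and 21.6% lower among all genes, and since a gene dim on 1 array counts only where the other is bright, a count covers the measured members and not the whole list. The median log2 ratio of MFH1NR to MSCs was -1 or less in 19 lists and 1 or more in 6. Macrophage markers, osteoclast markers and chemokines lay lowest. Among the lists with a high median, proliferation markers and cyclin-dependent kinase inhibitors kept 2.52 and 1.96 relative to all genes when no dim gene was left out. Germline genes and Hox genes did not, at 0.59 and 0.24 in place of 4.74 and 2.53, since 14 of 20 and 9 of 13 of their genes were dim in MSCs and many entered only where they were bright in MFH1NR. Adipocyte markers, matrix proteases, surface markers of MSCs, cyclin-dependent kinase inhibitors and the genes of glycolysis and of cholesterol synthesis were among the lists whose medians in the lines lay more than 1 log2 unit apart.

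**Figure D2:**
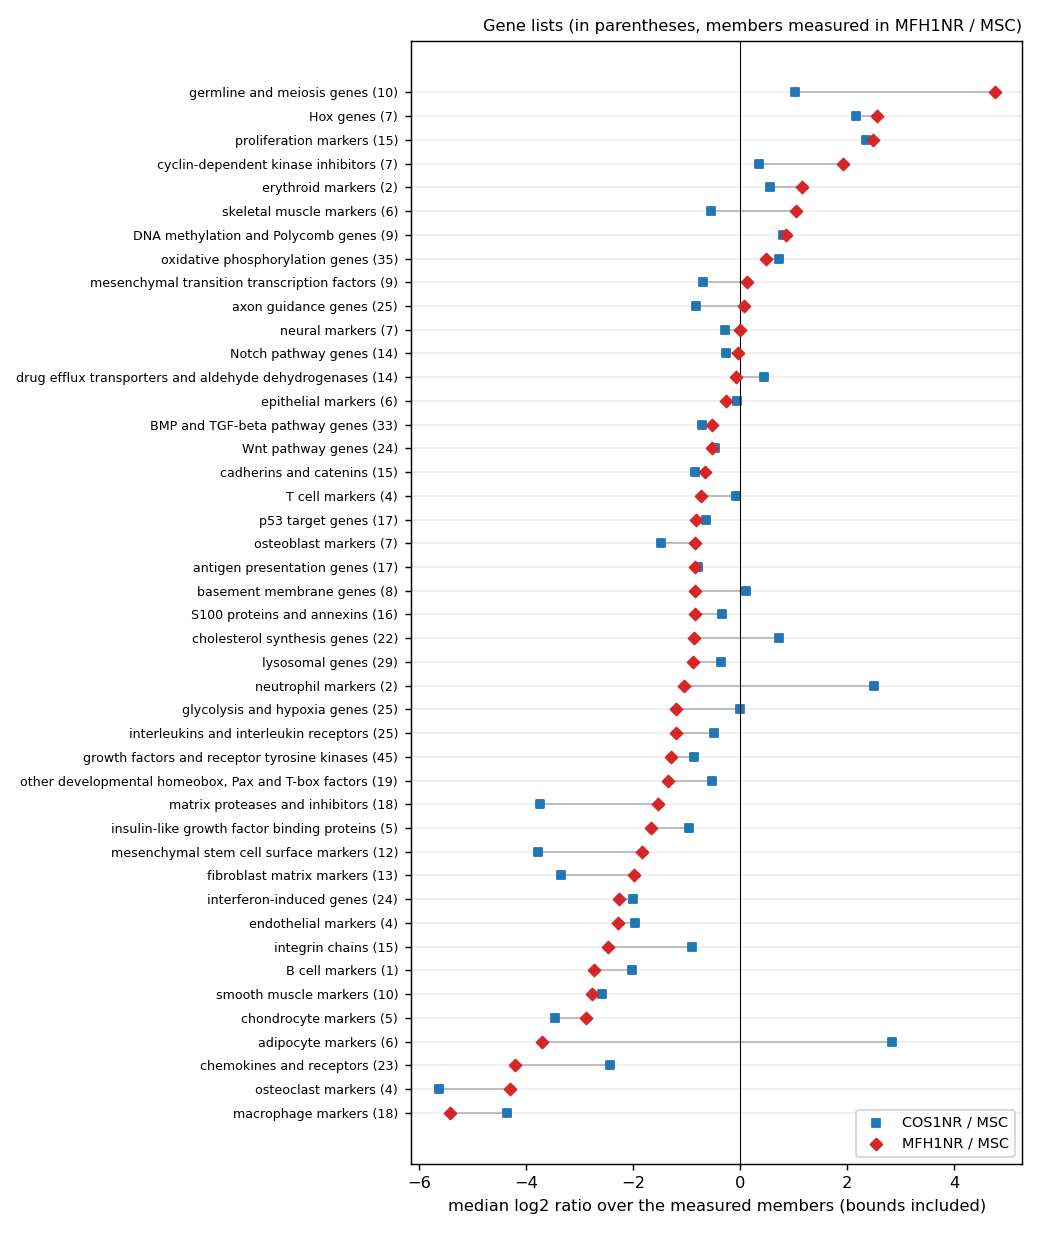
Median log2 ratio to MSCs of the measured members of 44 gene lists in MFH1NR (red diamonds) and COS1NR (blue squares), ordered by MFH1NR, with the number of members measured in MFH1NR against MSCs in parentheses and bounds included. Macrophage markers are lowest at -5.43 in MFH1NR and germline genes highest at 4.75, a value set by the members bright in MFH1NR, and adipocyte markers are -3.70 in MFH1NR and 2.84 in COS1NR.

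The MSC array carried the genes of a mesenchymal culture together with those of macrophages. Macrophage markers were lower in MFH1NR for 18 of 18 measured members, with a median log2 ratio of -5.43, and all 18 were lower in COS1NR too. Their scaled intensities added up to 5.41 in MFH1NR, 207 in MSCs and 13.1 in COS1NR. Lyz2, the lysozyme of myeloid cells, read a dim 15.5 in MFH1NR, 32304 in MSCs and a dim 23.5 in COS1NR, which makes MFH1NR at least 1813-fold lower than MSCs. Tyrobp, a signaling adaptor of myeloid receptors, had intensities of 61.3 in MFH1NR, 11921 in MSCs and 50.3 in COS1NR. Cd14 and C1qb remained detectable in MFH1NR at 3095 and 332, against 25626 and 7846 in MSCs. Osteoclast markers were lower for 4 of 4, among them Acp5, the tartrate-resistant acid phosphatase, which was 1136-fold lower. For Ctsk, cathepsin K, the intensities were 7209 in MFH1NR, 14774 in MSCs and 47.0 in COS1NR, so this protease of osteoclasts and fibroblasts was 3.46-fold lower in MFH1NR and far dimmer in COS1NR. Few markers could be measured for T cells (2 of 4 lower), B cells (1 of 1 lower), neutrophils (1 higher and 1 lower of 2), erythroid cells (1 higher of 2) and endothelial cells (3 of 4 lower). In this order, 6 of 7, 2 of 3, 5 of 6, 2 of 4 and 6 of 7 genes with a probe were dim in MFH1NR. In MSCs 3, 2, 5, 2 and 3 of them were dim, and in COS1NR 5, 2, 3, 1 and 5. Since macrophage markers marked the MSC array, genes that macrophages also express cannot be assigned to the mesenchymal cells of that culture, and the share of macrophages in each difference below was not tested.

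The surface genes Thy1, Pdgfra and Mcam lay within 2-fold of MSCs in MFH1NR and were far dimmer in COS1NR. Of 12 surface markers of MSCs, 0 were higher and 7 lower in MFH1NR (median log2 ratio -1.83), against 8 lower in COS1NR (median -3.77). Thy1 (CD90), a surface glycoprotein of fibroblasts, read 2632 in MFH1NR, 2781 in MSCs and a dim 6.29 in COS1NR. Pdgfra, the receptor for platelet-derived growth factor of mesenchymal progenitors, had intensities of 10693 in MFH1NR, 7621 in MSCs and 353 in COS1NR. Both lay within 2-fold of MSCs in MFH1NR, with log2 ratios of -0.83 and -0.27, as did Mcam (CD146) at 0.21 and, in both lines, Cd44 at -0.93 in MFH1NR and -0.57 in COS1NR, where a dimmer probe gave -1.93. Relative to COS1NR, MFH1NR was 23.5-fold higher for Pdgfra, 43.8-fold higher for Mcam and at least 69.7-fold higher for Thy1. Other surface markers were lower. Vcam1, an adhesion molecule for leukocytes, read 470.4 in MFH1NR, 36358 in MSCs and 1611 in COS1NR, and Alcam (CD166) and Eng (CD105) were dim in MFH1NR at 6.05 and 16.3, against 1090 and 561 in MSCs.

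Matrix genes of fibroblasts were divided. Of 13 members, 9 were lower and 1 was higher in MFH1NR (median log2 ratio -1.99), while 11 were lower in COS1NR (median -3.35). Lum (lumican, a proteoglycan of collagen fibrils) had intensities of 27085 in MFH1NR, 63624 in MSCs and 5825 in COS1NR, and Fbn1 (fibrillin, of elastic microfibrils) read 20871 in MFH1NR, 39810.1 in MSCs and 5143 in COS1NR, both lower in MFH1NR by a log2 ratio of -1.99 and -1.69 and higher than in COS1NR. Without scaling Fbn1 came within 2-fold of MSCs (-0.93). Decorin did the opposite. Dcn had intensities of a dim 20.4 in MFH1NR, 22059 in MSCs and 4845 in COS1NR, which was at least 1238-fold lower in MFH1NR and 5.98-fold lower in COS1NR, on a single named probe. Postn (periostin) was dim in both lines. Fbln1 (fibulin), the one member that was higher, read 3300.1 in MFH1NR, 479 in MSCs and 741 in COS1NR. Collagen probes disagreed with each other. For the chains of type I collagen, the probe with the higher mean log2 intensity gave log2 ratios of -0.38 for Col1a1 and -0.98 for Col1a2. The other probe, which was brighter in MSCs, gave -3.35 and -4.56, so the level of these genes in MFH1NR is uncertain.

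Proteases that cut this matrix differed between the lines as well. Matrix proteases and their inhibitors were lower for 10 and higher for 3 of 18, with a median log2 ratio of -1.55 in MFH1NR and -3.74 in COS1NR. Mmp14, a membrane-bound collagenase, had intensities of 55144 in MFH1NR, 41332 in MSCs and 1208 in COS1NR, and Mmp2, a gelatinase that it activates, read 27716 in MFH1NR, 38198 in MSCs and 323 in COS1NR. In MFH1NR their log2 ratios to MSCs were -0.34 and -1.22, and MFH1NR exceeded COS1NR by 35.5-fold and 66.8-fold, and Mmp2 came within 2-fold of MSCs without scaling (-0.46) and with quantile (-0.86) and spike-in scaling (-0.70). The 3 proteases that were higher were Mmp3, Mmp11 and Mmp16. Mmp3, stromelysin, had intensities of 9802 in MFH1NR, 372 in MSCs and 284 in COS1NR and was 15.6-fold higher in MFH1NR alone. Mmp16, another membrane-bound member, read 16977 in MFH1NR, 2280.2 in MSCs and a dim 6.12 in COS1NR. Its second probe was higher in MFH1NR too (1.71) but within 2-fold in COS1NR (-0.91), where the first was lower. Plau, the urokinase, had intensities of 62.1 in MFH1NR, 10699.9 in MSCs and a dim 16.7 in COS1NR, a log2 ratio of -8.18 to MSCs.

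Markers of the lineages that MSCs can form were not a common feature of MFH1NR. Adipocyte markers were lower for 4 of 6 measured members and higher for 0, and 5 of 7 were higher in COS1NR. Pparg, the nuclear receptor that drives fat cell formation, read a dim 13.6 in MFH1NR, 174 in MSCs and 1638 in COS1NR, and Fabp4, a fatty acid carrier, had intensities of a dim 23.5 in MFH1NR, 307 in MSCs and 21786 in COS1NR. In MFH1NR, Pparg was at least 9.79-fold lower, Fabp4 at least 17.2-fold lower, and Lpl (lipoprotein lipase) at least 25.6-fold lower. With all 3 arrays required to be well above background the list kept 1 member, Cebpa, whose log2 ratio was 0.61. Of 7 osteoblast markers, 2 were higher and 3 lower. Spp1, osteopontin, read 149222 in MFH1NR, 36180.0 in MSCs and 22285 in COS1NR, and Ibsp, bone sialoprotein, had intensities of 51.7 in MFH1NR, 5269 in MSCs and 491 in COS1NR, so that these matrix proteins of bone went apart in MFH1NR (1.29 and -7.43 in log2). Chondrocyte markers were lower for 3 and higher for 1 of 5, but Col9a1, counted as lower (-3.61), was higher on its second probe (1.14). Smooth muscle markers were lower for 7 of 10 and higher for 0, with Tagln (transgelin) at 136 in MFH1NR, 78247 in MSCs and a dim 6.0 in COS1NR. Skeletal muscle markers were higher for 3 and lower for 1 of 6, led by Acta1, skeletal actin, which read 2496 in MFH1NR, 292 in MSCs and 902 in COS1NR. With normexp background correction 1 of the 3 was still higher, and 7 of the 12 with a probe were dim in MSCs. For neural markers (2 higher and 2 lower of 7) and epithelial markers (1 higher and 2 lower of 6), medians were near 0, at -0.0031 and -0.28.

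The largest decreases from MSCs to MFH1NR, among genes well above background on both arrays, were those of Smoc2, Acp5, Tagln, Srpx, Cyp1b1, Ccl7, C1qtnf5, Apoe, Ccl4 and Tyrobp. They ranged from 328-fold (Tyrobp) to 1836-fold (Smoc2, a matrix protein that binds calcium). All 10 were at least 2-fold lower in COS1NR as well, by amounts that ran from 2.02-fold for Ccl7 to at least 3528-fold for Smoc2. The second probe of Ccl7 was within 2-fold in COS1NR (-0.98). This chemokine thus differed mainly in MFH1NR, with 92.5 in MFH1NR, 37155 in MSCs and 24113 in COS1NR. The largest increases were those of Rhox5, Rec114, Ankrd34a, Rassf6, Id1, Ccnb1ip1, Piwil2, Rragd, Lama3 and Fbxo5, from 34.6-fold (Fbxo5, an inhibitor of the anaphase-promoting complex) to 276-fold (Rhox5). Rassf6, Ccnb1ip1 and Piwil2 were dim in COS1NR, at 6.14, 7.0 and 17.8. The genes Ccnb1ip1, Piwil2, Rec114 and Rhox5 are known for roles in germ cells or the testis.

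Higher in MFH1NR alone, and well above background on all 3 arrays, were 224 genes. Among the 10 with the largest differences from both others were Il33, Apold1, Qprt, Mmp3, Akr1c13, Lrtm2, Car6, Dusp13b and Smarca5. Il33, an interleukin stored in the nucleus and released as an alarm signal, had intensities of 2448 in MFH1NR, 48.2 in MSCs and 79.0 in COS1NR, and its second probe gave a log2 ratio of at least 5.06. Qprt, an enzyme of NAD synthesis from tryptophan, read 3476 in MFH1NR, 116 in MSCs and 113 in COS1NR. Smarca5, the ATPase of ISWI chromatin remodelers, had intensities of 23127 in MFH1NR, 1203 in MSCs and 1898 in COS1NR. On these 3 probes the MSC and COS1NR arrays were close to each other, and MFH1NR stood apart by 30.1-fold, 17.8-fold and 11.4-fold from MSCs. Car6, a secreted carbonic anhydrase, read 3002 in MFH1NR, 157 in MSCs and 132 in COS1NR.

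Lower in MFH1NR alone, with all 3 arrays well above background, were 286 genes. Pon2, Nbl1, Acot9, Enpep, B4galt6, Ccl20, Col18a1, Kif13a, Smco4 and Tlr2 stood furthest from both others. Pon2, an antioxidant lactonase, had intensities of 49.1 in MFH1NR, 6414 in MSCs and 5980.3 in COS1NR, and its 3 probes gave log2 ratios of -7.79, at most -6.84 and at most -6.12. Nbl1, a secreted antagonist of bone morphogenetic proteins, read 74.1 in MFH1NR, 6717 in MSCs and 6533 in COS1NR. Enpep, an aminopeptidase that processes angiotensin, had intensities of 169 in MFH1NR, 7951 in MSCs and 19034 in COS1NR. For these the decreases were 221-fold, 153-fold and 79.6-fold. Tlr2, a receptor for bacterial lipoproteins, read 570.2 in MFH1NR, 12626 in MSCs and 14607 in COS1NR, and Ccl20, a chemokine for lymphocytes and dendritic cells, 136 in MFH1NR, 6746 in MSCs and 5194 in COS1NR.

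**Figure D3:**
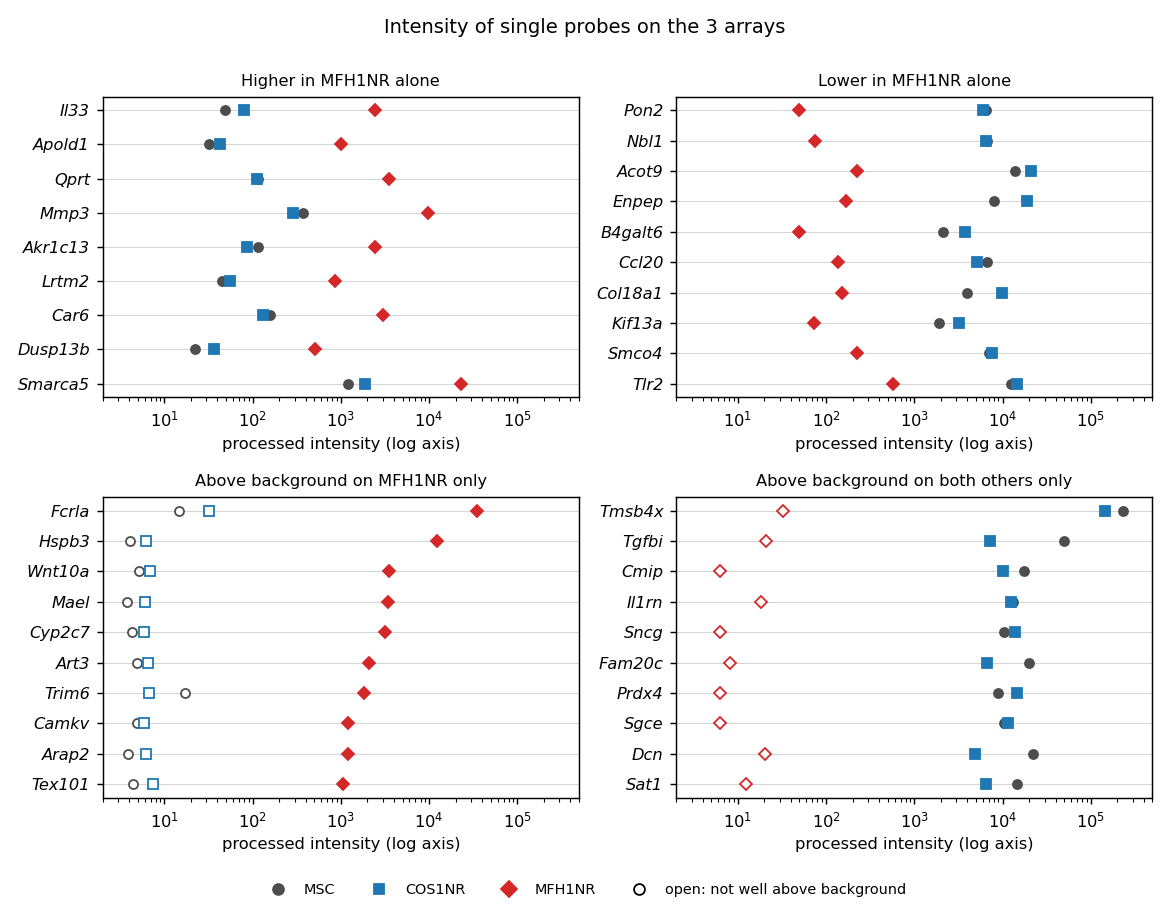
Processed intensity (log axis, not scaled between arrays) of 39 genes on the arrays of MSCs (circles), COS1NR (squares) and MFH1NR (diamonds), 1 probe and 1 array per point, open where not well above background. In each panel the MFH1NR point stands apart from both other points, as for Il33 at 2448 against 48.2 and 79.0, and Tmsb4x at a dim 32.7 against 231219 and 146532.

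Some genes were bright on the MFH1NR array and dim on both others, or the reverse. The brightest genes detected on MFH1NR only were Fcrla, Hspb3, Wnt10a, Mael, Cyp2c7, Art3, Trim6, Camkv, Arap2 and Tex101. Fcrla, an Fc receptor-like protein known from B cells, had intensities of 35084 in MFH1NR, a dim 14.8 in MSCs and a dim 31.7 in COS1NR, at least 1161-fold above MSCs. Hspb3, a small heat shock protein of muscle, read 12392 in MFH1NR, a dim 4.09 in MSCs and a dim 6.12 in COS1NR. Fcrla and Hspb3 had 1 named probe each, so no second probe could be compared. The 4 probes of Cyp2c7, a cytochrome P450 of the liver, ranged from 3128 to a dim 15.8 in MFH1NR, and the family has near-identical members, so its identity is uncertain.

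In the other direction, Tmsb4x, Tgfbi, Cmip, Il1rn, Sncg, Fam20c, Prdx4, Sgce, Dcn and Sat1 were the brightest genes on both other arrays that were dim in MFH1NR. Tmsb4x encodes thymosin beta 4, which binds actin monomers and is abundant in most cells, and had intensities of a dim 32.7 in MFH1NR, 231219 in MSCs and 146532 in COS1NR. This was at least 11930-fold below MSCs. Tgfbi, a matrix protein induced by TGF-beta, read a dim 20.7 in MFH1NR, 49267 in MSCs and 7226 in COS1NR, and its second probe was dim in MFH1NR too. Il1rn, the antagonist of the interleukin 1 receptor, had intensities of a dim 18.4 in MFH1NR, 13054 in MSCs and 12434 in COS1NR. Sgce, a sarcoglycan, read a dim 6.25 in MFH1NR, 10354 in MSCs and 11673 in COS1NR, and Fam20c, a kinase of secreted proteins, a dim 8.23 in MFH1NR, 20125 in MSCs and 6644 in COS1NR. Apart from Tgfbi and Il1rn, these genes had 1 named probe each, so a probe that failed on 1 array cannot be told apart from a loss of the transcript.

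A few germline and meiosis genes were bright on the MFH1NR array. Such genes act in the testis and ovary and are normally silent in somatic cells. Of 20 genes with a probe, 8 were higher, 1 was lower and 1 lay within 2-fold in MFH1NR, and 10 were dim in both MFH1NR and MSCs. Since genes dim in MSCs entered the count only where MFH1NR was bright, it describes these genes and not the family, whose median over all 20 relative to all genes was 0.59. Mael, which represses transposons in germ cells, had intensities of 3394 in MFH1NR, a dim 3.82 in MSCs and a dim 6.06 in COS1NR. Tex101, a surface protein of germ cells, read 1071 in MFH1NR, a dim 4.45 in MSCs and a dim 7.35 in COS1NR. Taf7l, a testis paralog of a general transcription factor subunit, had intensities of 619 in MFH1NR, a dim 11.1 in MSCs and a dim 23.7 in COS1NR, and Sycp1, a filament of the synaptonemal complex, read 198 in MFH1NR, a dim 4.73 in MSCs and a dim 6.62 in COS1NR. These 4 were detected on MFH1NR only, and the bounds were at least 112-fold, 35.4-fold, 20.5-fold and 6.54-fold above MSCs. Piwil2, a protein that binds small RNAs against transposons, had intensities of 3010.0 in MFH1NR, 44.1 in MSCs and a dim 17.8 in COS1NR, but its second probe was dim on all 3 arrays. Rhox5, a homeobox gene of the X chromosome, and Rec114, needed for meiotic DNA breaks, were high in both lines, with 54333 in MFH1NR, 117 in MSCs and 7054 in COS1NR for Rhox5 and 25709 in MFH1NR, 81.6 in MSCs and 18757 in COS1NR for Rec114. Prdm9, which marks recombination sites, read 610.3 in MFH1NR, 99.2 in MSCs and 531 in COS1NR. Dmrt1 was dim in both lines.

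The upstream sequences of the 4 germline genes detected on MFH1NR only are shown, since germline promoters are often rich in CG pairs, the sites of DNA methylation. Whether these sequences regulate the genes was not tested. Each is the 250 bases before the start in RefSeq on build GRCr8, 5′ to 3′ on the strand of the gene, with each CG in capitals. Mael lies at chr13:81029624-81029873 on the minus strand, Tex101 at chr1:89387341-89387590 on the minus strand, Sycp1 at chr2:193145181-193145430 on the minus strand and Taf7l at chrX:101968286-101968535 on the minus strand.
Mael: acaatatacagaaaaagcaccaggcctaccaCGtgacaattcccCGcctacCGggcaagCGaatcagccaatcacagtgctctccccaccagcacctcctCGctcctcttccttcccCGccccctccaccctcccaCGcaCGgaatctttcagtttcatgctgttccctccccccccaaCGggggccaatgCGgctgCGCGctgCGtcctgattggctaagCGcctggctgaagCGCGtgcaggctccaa
Tex101: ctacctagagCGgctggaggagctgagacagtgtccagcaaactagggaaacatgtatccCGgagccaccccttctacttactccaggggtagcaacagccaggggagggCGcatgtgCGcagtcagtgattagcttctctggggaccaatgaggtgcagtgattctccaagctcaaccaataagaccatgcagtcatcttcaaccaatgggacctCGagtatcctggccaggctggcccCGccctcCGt
Sycp1: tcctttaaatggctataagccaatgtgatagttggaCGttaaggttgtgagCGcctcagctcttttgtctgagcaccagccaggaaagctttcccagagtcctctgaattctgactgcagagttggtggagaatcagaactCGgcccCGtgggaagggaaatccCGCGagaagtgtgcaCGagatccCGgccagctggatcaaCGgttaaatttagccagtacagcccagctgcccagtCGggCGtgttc
Taf7l: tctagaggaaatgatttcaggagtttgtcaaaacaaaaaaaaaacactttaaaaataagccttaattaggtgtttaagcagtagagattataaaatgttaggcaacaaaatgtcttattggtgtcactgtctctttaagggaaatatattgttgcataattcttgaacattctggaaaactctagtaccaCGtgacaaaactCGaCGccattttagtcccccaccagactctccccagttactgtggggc
They held 16, 7, 11 and 3 CG pairs. Upstream sequences were found for 17 genes of the list. The 6 of these that were higher in MFH1NR held 3 to 16 CG pairs with a median of 9.5, the 11 others held 0 to 30 with a median of 17, and over 33469 upstream sequences the median was 5, and 92.2% held at least 1. The dinucleotide CG reads the same on both strands. The arrays measured RNA, not methylation.

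**Figure D4:**
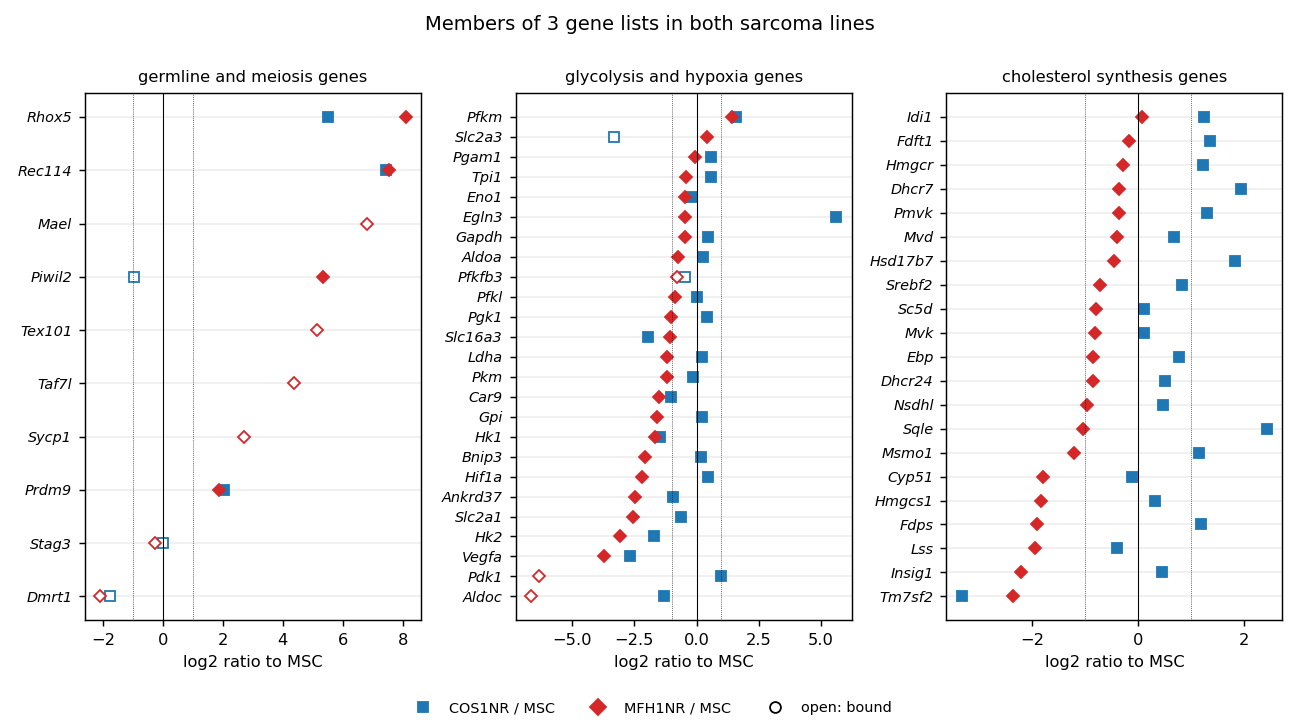
Log2 ratio to MSCs of measured members of the germline, glycolysis and cholesterol synthesis lists in MFH1NR (red diamonds) and COS1NR (blue squares), 1 probe per gene, open where the ratio is a bound, with dotted lines at 2-fold. Germline genes reach 8.11 in MFH1NR, and most points of the metabolic lists lie left of those of COS1NR, with medians over the full lists of -1.20 and -0.86 in MFH1NR.

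Some genes of the bone morphogenetic protein (BMP) pathway were far brighter in MFH1NR, although more of its genes were lower than higher. BMPs bind receptors of types I and II, which act through Smad proteins on targets such as the Id genes, inhibitors of differentiation. Of 33 measured genes of the BMP and TGF-beta pathways, 6 were higher and 13 lower in MFH1NR, beside 19.4% and 21.6% of all genes. The share of higher genes was thus near that of all genes. Without scaling 11 were higher and 7 lower. The ligand Bmp2 had intensities of 28448 in MFH1NR, 734 in MSCs and 460.2 in COS1NR. Its probes gave log2 ratios of -1.07 and -0.98 in COS1NR, at the edge of 2-fold. The target Id1 read 50908 in MFH1NR, 566 in MSCs and 9702 in COS1NR and was 53.3-fold higher in MFH1NR and higher in COS1NR too. Id2 had intensities of 7924 in MFH1NR, 1492 in MSCs and 2053 in COS1NR, the feedback inhibitor Smad6 read 2340.1 in MFH1NR, 582 in MSCs and 269.9 in COS1NR, and the receptor Bmpr1a had intensities of 5005 in MFH1NR, 1436 in MSCs and 2113 in COS1NR. Their log2 ratios in MFH1NR were 4.52 for Bmp2, 5.73 for Id1, 1.65 for Id2, 1.25 for Smad6 and 1.05 for Bmpr1a, whose second probe gave 0.63. The 3 probes of Id3 lay within 2-fold, at -0.12, -0.43 and -0.27. Id4 was lower, with a dim 6.18 in MFH1NR, 1538 in MSCs and 1233 in COS1NR, which was at least 86.3-fold lower in MFH1NR. Grem1, an antagonist that binds BMPs, read 22652 in MFH1NR, 53526 in MSCs and 40.6 in COS1NR. Among the TGF-beta ligands, Tgfb1 was within 2-fold (-0.50), and Tgfb2 and Tgfb3 were lower (-3.03 and -3.54). The activin subunit Inhba was lower as well (-2.94).

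In the Wnt pathway, 6 of 24 measured genes were higher and 8 lower, and 5 were higher in MFH1NR alone, beside 19.4%, 21.6% and 4.12% of all genes. These counts rest on how dim probes were treated. Without a filter on them 2 genes were higher in MFH1NR alone, and with genes dim on any array left out 0 were higher. Wnt ligands bind Frizzled receptors and stabilize beta-catenin, which turns on targets that include its own inhibitors. The ligand Wnt10a, outside the list but among the brightest genes detected on MFH1NR only, had intensities of 3549 in MFH1NR, a dim 5.13 in MSCs and a dim 6.91 in COS1NR, and its second probe gave a log2 ratio of at least 3.99. Wnt11 read 193 in MFH1NR, a dim 14.4 in MSCs and a dim 6.77 in COS1NR, and the receptor Fzd5 220.5 in MFH1NR, a dim 14.9 in MSCs and 42.8 in COS1NR. The targets and inhibitors Notum, Dkk1 and Axin2 were also higher, but after normexp background correction Dkk1 (0.90) and Axin2 (0.45) came within 2-fold. Notum, an enzyme that inactivates Wnt ligands, had intensities of 610.2 in MFH1NR, 23.9 in MSCs and a dim 6.45 in COS1NR. For Dkk1, which blocks the coreceptor, the values were 141 in MFH1NR, a dim 3.97 in MSCs and a dim 6.52 in COS1NR, and for Axin2, a scaffold of beta-catenin destruction, 128 in MFH1NR, 22.7 in MSCs and a dim 16.1 in COS1NR. Wnt11, Dkk1 and Fzd5 were dim in MSCs and so could be counted only as higher. Wnt10b was higher in MFH1NR than in MSCs and lower in COS1NR, and with normexp it came within 2-fold in MFH1NR (0.74). The receptor Fzd1 was lower in MFH1NR alone, with a dim 6.04 in MFH1NR, 4700.4 in MSCs and 11331 in COS1NR, and the transcription factor Lef1 was dim in both lines. Ctnnb1, beta-catenin, was within 2-fold in MFH1NR (-0.67).

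Of 14 Notch genes, 3 were higher and 2 lower in MFH1NR, near the shares of all genes (19.4% and 21.6%). The higher genes were the ligands or ligand-like genes Dll3 and Dlk1 and the nuclear effector Rbpj (1.31), each higher in MFH1NR alone, but with normexp Dll3 (0.69) and Dlk1 (0.38) came within 2-fold. Axon guidance genes were higher for 8 and lower for 9 of 25, and with normexp for 2 and 7. Robo2, a receptor for Slit proteins, read 974 in MFH1NR, 125 in MSCs and a dim 6.67 in COS1NR, and Efnb1, an ephrin ligand, had intensities of a dim 9.02 in MFH1NR, 2543 in MSCs and 491 in COS1NR.

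Growth factors and receptor tyrosine kinases were mostly lower, with 25 of 45 lower and 5 higher in MFH1NR against 22 lower in COS1NR. Bdnf, a neurotrophin, read 1159 in MFH1NR, 28.0 in MSCs and a dim 15.7 in COS1NR and was 24.5-fold higher in MFH1NR alone. Vegfc, a factor for lymphatic vessels, had intensities of 16071 in MFH1NR, 3187 in MSCs and a dim 6.23 in COS1NR, while Vegfa, the main factor for blood vessels, read 803 in MFH1NR, 6361 in MSCs and 1301 in COS1NR. Among ligands of the epidermal growth factor receptor, Tgfa and Areg were split between the lines. Tgfa had intensities of a dim 6.45 in MFH1NR, 2109 in MSCs and 7282 in COS1NR, and Areg read a dim 6.26 in MFH1NR, 742 in MSCs and 2198 in COS1NR. Both were higher in COS1NR and lower in MFH1NR, by at least 118-fold and at least 41.6-fold. Ereg was lower in MFH1NR alone (-1.22), though within 2-fold without scaling (-0.47) and with spike-in scaling (-0.70), and Hbegf was lower in both lines (-2.25 in MFH1NR and -2.01 in COS1NR). Fgfr2 and Fgf7, a receptor and one of its ligands, were lower by log2 ratios of -6.82 and at most -6.63, although a dimmer probe of Fgfr2 lay within 2-fold. Igf1, Igf2 and Igf1r were lower (-2.19, -2.42 and -3.06), and the second probe of Igf1 gave -6.08. Binding proteins of these insulin-like factors were lower for 3 of 5, with Igfbp3 at a dim 6.15 in MFH1NR, 1453 in MSCs and 141 in COS1NR.

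Factors that set cell identity differed in both directions. Hox genes, which pattern the body axis, were higher for 6 of 13 with a probe in MFH1NR and for 6 in COS1NR. As 9 of the 13 were dim in MSCs, this count too holds only genes that were bright in a sarcoma line or in MSCs, and the median over all 13 relative to all genes was 0.24 in MFH1NR. Hoxa2 had intensities of 1065 in MFH1NR, a dim 9.89 in MSCs and a dim 14.9 in COS1NR and Hoxb9 177 in MFH1NR, a dim 12.7 in MSCs and a dim 22.6 in COS1NR, both in MFH1NR alone, and Hoxc4 read 1077 in MFH1NR, 53.6 in MSCs and 217 in COS1NR. Other developmental homeobox, Pax and T-box factors were higher for 4 and lower for 11 of 19, and with normexp higher for 1. Emx2, a homeobox factor of the urogenital tract and forebrain, had intensities of 3196 in MFH1NR, 217 in MSCs and a dim 6.0 in COS1NR. The T-box factors Tbx3 and Tbx18 were dim in MFH1NR, with a dim 6.46 in MFH1NR, 5284 in MSCs and 2135 in COS1NR for Tbx3 and a dim 6.06 in MFH1NR, 2467 in MSCs and 2243 in COS1NR for Tbx18. Transcription factors of mesenchymal transition were higher for 3 and lower for 4 of 9, and without scaling lower for 1. Twist1 and Twist2 were higher in both lines, and Snai1 was lower in both. Snai2 (Slug) differed in sign, with 1424 in MFH1NR, 152 in MSCs and 30.5 in COS1NR.

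Markers of dividing cells were higher in both lines. All 15 proliferation markers were higher in MFH1NR (median log2 ratio 2.48) and in COS1NR (2.35), from Ccnb1 at 1.28 to Cenpa at 3.49 in MFH1NR. Inhibitors of cyclin-dependent kinases were higher for 4 and lower for 1 of 7. Cdkn2a, which encodes inhibitors that act on the retinoblastoma and p53 pathways, read 92000.2 in MFH1NR, 3864 in MSCs and 11979 in COS1NR. Its neighbor Cdkn2b had intensities of 4792 in MFH1NR, 602 in MSCs and 1013 in COS1NR and was higher in MFH1NR alone. Cdkn1a (p21), a target of p53, read 3557 in MFH1NR, 19500.0 in MSCs and 3254 in COS1NR. Of 17 p53 targets, 0 were higher and 7 lower in MFH1NR, against 0 and 6 in COS1NR, among them Btg2 (-5.15), Phlda3 (-2.36) and Bbc3 (-1.39, in MFH1NR alone). Bbc3 came within 2-fold without scaling (-0.64) and with spike-in scaling (-0.87), and without scaling 3 of the 17 were higher and 6 lower. Genes of DNA methylation and Polycomb repression were higher for 4 of 9 (7 without scaling) and lower for 0, with Dnmt1, the maintenance methyltransferase, at 2534 in MFH1NR, 477 in MSCs and 1279 in COS1NR, and Cbx8 at 998 in MFH1NR, 64.6 in MSCs and 324 in COS1NR.

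Chemokines were lower in MFH1NR to a greater extent than in COS1NR. Of 23 measured chemokines and receptors, 20 were lower and 2 higher in MFH1NR, with a median log2 ratio of -4.22, against 18 lower and 4 higher in COS1NR with a median of -2.44. Against COS1NR itself, 10 were lower in MFH1NR and 1 was higher. Ccl2, which draws monocytes, had intensities of 15438 in MFH1NR, 142651 in MSCs and 64189 in COS1NR, and Ccl3 read 161 in MFH1NR, 23212 in MSCs and 2798 in COS1NR. Cxcl1, a chemokine for neutrophils, was within 2-fold of MSCs (-0.93). Cxcl12, the ligand of Cxcr4, had intensities of 8973 in MFH1NR, 38914 in MSCs and 6843 in COS1NR. Some of these, such as Ccl3 and Ccl4, are known products of macrophages, whose markers marked the MSC array.

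Interleukins and their receptors were lower for 15 of 25 and higher for 1, and 6 were lower in MFH1NR alone, beside 3.97% of all detected genes. Without scaling 11 were lower, with spike-in scaling 12, of which 3 in MFH1NR alone, and with genes dim on any array left out 8. The one that was higher was Il33, and its receptor gene Il1rl1 went the other way, with 250.2 in MFH1NR, 4615 in MSCs and 5146 in COS1NR, although a second probe of Il1rl1 was within 2-fold (-0.97). Il1b read a dim 8.06 in MFH1NR, 30129.8 in MSCs and 1337 in COS1NR. Il6 and the receptor chains Il6st and Osmr, which pass signals of the interleukin 6 family, were lower, with 39.5 in MFH1NR, 522 in MSCs and 1855 in COS1NR for Il6, 1357 in MFH1NR, 10362 in MSCs and 6833 in COS1NR for Il6st and 40.6 in MFH1NR, 203 in MSCs and 295 in COS1NR for Osmr. Interferon-induced genes were lower for 14 and higher for 4 of 24, against 15 and 1 in COS1NR. Ifitm3, a membrane protein against viruses, had intensities of 595 in MFH1NR, 16901 in MSCs and 11893 in COS1NR and was lower in MFH1NR alone, whereas Bst2 (tetherin) read 15774 in MFH1NR, 1199 in MSCs and 3574 in COS1NR and Ifi44l 458 in MFH1NR, 38.1 in MSCs and 35.3 in COS1NR. Genes of antigen presentation were lower for 7 and higher for 2 of 17, and without scaling for 5 and 4. The lower ones included the class II genes RT1-Da, RT1-Db1 and RT1-Bb and their chaperone Cd74, typical of macrophages, which were dim in both lines. The 2 higher ones were the immunoproteasome subunits Psmb8, with 14373 in MFH1NR, 1281 in MSCs and 2654 in COS1NR, and Psmb9, with 18707 in MFH1NR, 4865 in MSCs and 7886 in COS1NR.

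Genes of glycolysis and hypoxia were lower in MFH1NR more often than in COS1NR, by a count that depended on the scaling. Of 25, 15 were lower and 1 higher in MFH1NR (median log2 ratio -1.20), against 7 lower and 2 higher in COS1NR (median 0.00). Lower in MFH1NR alone were 9, beside 3.97% of all detected genes. These 9 were Ankrd37, Bnip3, Gpi, Hif1a, Ldha, Pdk1, Pgk1, Pkm and Slc2a1. Hif1a, the oxygen-regulated transcription factor, had intensities of 14586 in MFH1NR, 39045 in MSCs and 71341 in COS1NR. Slc2a1, the main glucose transporter, read 3347 in MFH1NR, 11522 in MSCs and 9928 in COS1NR. Pdk1, which keeps pyruvate out of the mitochondrion, had intensities of a dim 8.30 in MFH1NR, 1461 in MSCs and 3824 in COS1NR. Ldha, lactate dehydrogenase, read 30289.9 in MFH1NR, 41141 in MSCs and 62613 in COS1NR, a log2 ratio of -1.20 to MSCs. Of these decreases, those of Ldha, Pkm and Pgk1 came within 2-fold of MSCs without scaling and with median, quantile and spike-in scaling, at -0.28 to -0.99, as did that of Slc16a3, a lactate exporter, and those of Pgk1 and Slc16a3 also with normexp (-0.96 and -0.81). Without scaling Gpi (-0.85), Hk1 (-0.93) and Car9 (-0.75) came within 2-fold as well, and 8 of the 25 genes were lower, 5 of them in MFH1NR alone, against 10 with spike-in scaling and 11 with median or quantile scaling. Those of Hif1a, Slc2a1 and Pdk1 stayed lower. Against COS1NR, 15 of the genes were lower in MFH1NR and 1 was higher.

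Cholesterol synthesis genes also separated the lines. Of 22 genes, 0 were higher and 9 lower in MFH1NR, whereas 9 were higher and 1 lower in COS1NR, and 19 were lower in MFH1NR than in COS1NR. The medians of the log2 ratio were -0.86 and 0.72. Fdps, farnesyl diphosphate synthase, had intensities of 8701 in MFH1NR, 19322 in MSCs and 57374 in COS1NR, and Sqle, squalene epoxidase, read 1549 in MFH1NR, 1899 in MSCs and 13454 in COS1NR. Insig1, a sterol-regulated brake on the pathway, had intensities of 5844 in MFH1NR, 16083 in MSCs and 28872 in COS1NR. Of the 9 lower genes, Sqle and Msmo1, another enzyme of the pathway, came within 2-fold of MSCs with median scaling, with spike-in scaling (-0.53 and -0.70) and without scaling (-0.29 and -0.46), and Msmo1 also with quantile normalization (-0.90). Among the genes lower in MFH1NR alone were Cyp51, Hmgcs1, Insig1 and Lss. Oxidative phosphorylation genes showed no such split, with 4 of 35 higher and 0 lower in MFH1NR and 8 higher in COS1NR, but without scaling 23 were higher in MFH1NR and with spike-in scaling 17. Lysosomal genes were lower for 13 and higher for 2 of 29, and lower for 9 with median and 6 without or with spike-in scaling, and Ctsh (-6.27) and Ctss, at most -7.43, stood lowest.

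Integrin chains, which tie cells to the matrix, were mostly lower. They were lower for 11 and higher for 1 of 15 in MFH1NR, and the medians were -2.47 in MFH1NR and -0.90 in COS1NR. Lower in MFH1NR alone were 4, beside 3.97% of all detected genes. With genes dim on any array left out, 6 chains were lower and 1 higher. The shared beta chain Itgb1 read 6090.3 in MFH1NR, 20001 in MSCs and 16415 in COS1NR, and Itga5, its partner in the fibronectin receptor, had intensities of 701 in MFH1NR, 3337 in MSCs and 1691 in COS1NR. Itgb4, a laminin-binding chain of hemidesmosomes, went the other way, with 13861 in MFH1NR, 1126 in MSCs and 3359 in COS1NR, as did the laminin chain Lama3, with 46.2 in MSCs and 225 in COS1NR and a ratio of 39.5-fold in MFH1NR. Basement membrane genes were higher for 2 and lower for 4 of 8, and without scaling for 3 and 2. Cadherins and catenins were lower for 4 and higher for 1 of 15, with 10 within 2-fold, near the shares of all genes (19.4% higher and 21.6% lower) for the lower ones. Without scaling and with spike-in scaling 3 were lower and 3 higher, and with genes dim on any array left out 0 were lower. Cdh2, N-cadherin, read a dim 6.63 in MFH1NR, 1511 in MSCs and 173 in COS1NR, and Cdh11, the cadherin of mesenchyme, had intensities of 743 in MFH1NR, 818 in MSCs and a dim 9.48 in COS1NR, with 4 probes from -0.89 to -1.19 in log2. S100 proteins and annexins were lower for 7 and higher for 1 of 16, with S100a4 at 52317 in MFH1NR, 174007 in MSCs and 170180.0 in COS1NR. Drug efflux transporters and aldehyde dehydrogenases were higher for 4 and lower for 4 of 14, and without scaling for 5 and 2, beside 19.4% and 21.6% of all genes. The transporter Abcg2 read 1797 in MFH1NR, 119.6 in MSCs and 538 in COS1NR, and Abcc2 1375 in MFH1NR, 55.8 in MSCs and 235 in COS1NR, and both were higher in both lines.

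Genes that differed in MFH1NR from both others were next placed in chromosome order by the gene table of build GRCr8, with 10008 genes in order. At least 2-fold higher in MFH1NR than on both other arrays were 602 of these (6.02%), and 745 were lower (7.44%). The corresponding counts were 601 (6.01%) and 560 (5.6%) for COS1NR and 1294 (12.9%) and 1078 (10.8%) for MSCs. In MFH1NR the higher genes formed 15 runs of 3 or more neighbors, with a longest run of 11 genes, against 8 runs and a longest of 5 in COS1NR and 37 runs and a longest of 5 in MSCs. Lower genes formed 17 runs in MFH1NR with a longest of 5, against 6 runs and 4 in COS1NR and 25 runs and 6 in MSCs.

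The longest run lay on chromosome 5. From Pdp1 to Coq3, 16 of 17 neighboring genes were higher in MFH1NR than on both other arrays, with a median log2 ratio of 2.20 to MSCs and 2.31 to COS1NR, and of -0.03 for COS1NR to MSCs. The exception was Atp6v0d2, a proton pump subunit of osteoclasts. Decr1, an enzyme of fatty acid oxidation, had intensities of 79554 in MFH1NR, 10225 in MSCs and 21881 in COS1NR. Nbn, a sensor of DNA breaks, read 14707 in MFH1NR, 2166 in MSCs and 2843 in COS1NR, and Ccnc, a cyclin of the Mediator complex, had intensities of 4630.4 in MFH1NR, 826 in MSCs and 673 in COS1NR. Ggh, which cleaves folate chains, read 56286 in MFH1NR, 5804 in MSCs and 11094 in COS1NR, and Coq3, of ubiquinone synthesis, 50896 in MFH1NR, 4443 in MSCs and 7993 in COS1NR. Whether the genes of this run share a function was not tested. Over the whole chromosome, 68 of 635 genes were higher than on both others (10.7%). On chromosomes 11 and 14 the share was 12.7% and 11.4%, and on the other chromosomes it lay between 2.68% and 7.82%.

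A stretch of the X chromosome behaved in the opposite way. From Piga to Prkx, 14 of 20 genes were lower in MFH1NR than on both others, with median log2 ratios of -3.28 to MSCs and -3.62 to COS1NR. Pdha1, a subunit of the pyruvate dehydrogenase complex, had intensities of a dim 6.13 in MFH1NR, 4627 in MSCs and 11529.8 in COS1NR. Prdx4, a peroxidase of the endoplasmic reticulum, read a dim 6.29 in MFH1NR, 8857 in MSCs and 14605 in COS1NR, and Sat1, of polyamine breakdown, had intensities of a dim 12.3 in MFH1NR, 14718 in MSCs and 6449 in COS1NR. Pdha1, Prdx4 and Sat1 had 1 named probe each. Eif1ax, a translation initiation factor, remained above background, with 332 in MFH1NR, 3802 in MSCs and 8566 in COS1NR. Within the same stretch, Rbbp7 read 8201 in MFH1NR, 4939 in MSCs and 7494 in COS1NR, Sms 477 in MFH1NR, 198 in MSCs and 518 in COS1NR and Mbtps2 89.6 in MFH1NR, 53.1 in MSCs and 101 in COS1NR, all within 2-fold of MSCs in MFH1NR, so the stretch was not dark throughout. Over the X chromosome, 60 of 295 genes (20.3%) were lower in MFH1NR than on both others, against 4.41% for COS1NR, and on the autosomes the share in MFH1NR lay between 4.26% and 12.5%. Tmsb4x lies on the X chromosome too, before this stretch. The stretches were chosen after the values were seen, and the arrays measured RNA and not copies of DNA.

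**Figure D5:**
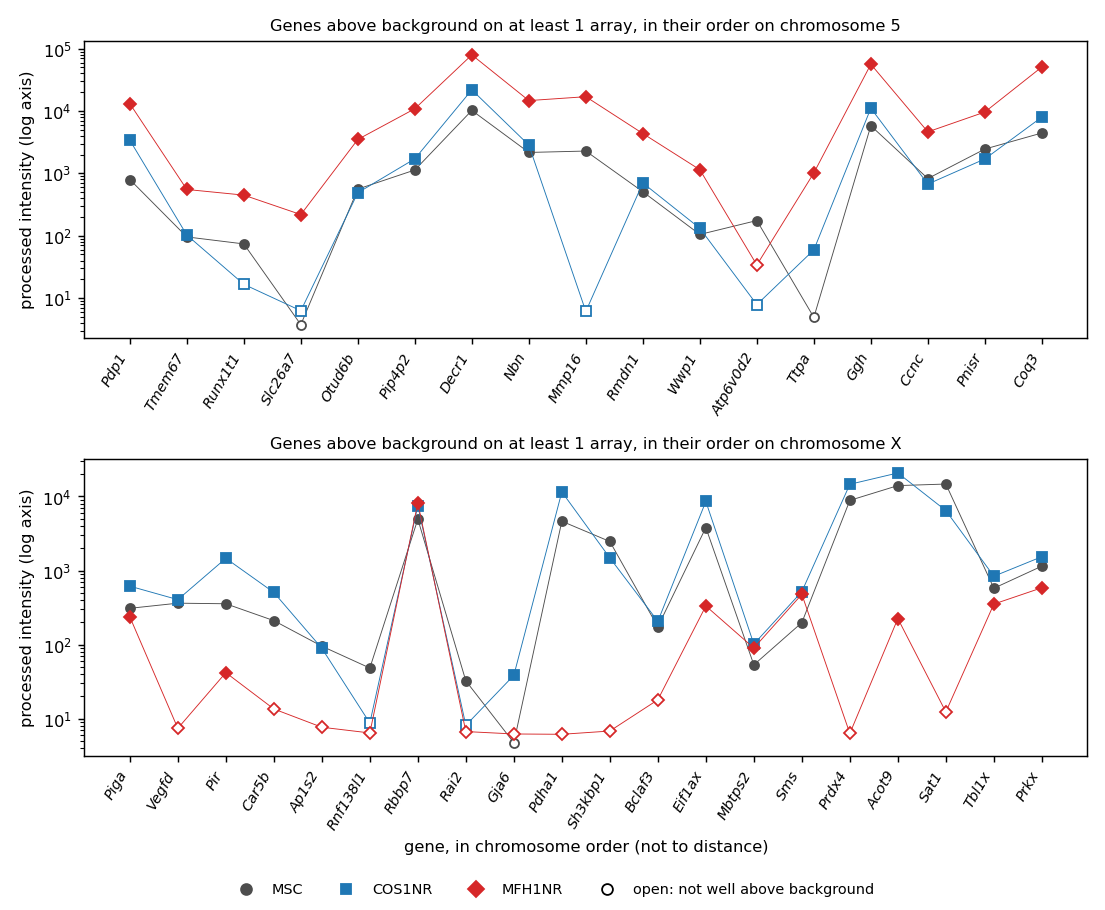
Processed intensity (log axis, not scaled between arrays) of neighboring genes, in chromosome order, for the stretches of chromosome 5 (upper panel) and the X chromosome (lower panel) on the 3 arrays, open where not well above background, with lines that only join the points of an array. MFH1NR (diamonds) lies above both others at every gene of the upper panel except Atp6v0d2, and in the lower panel far below them at Pdha1, Prdx4 and Sat1 but not at Rbbp7, Sms and Mbtps2.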

How the data were processed

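RNA of MSCs, COS1NR and MFH1NR was measured on 1 one-color whole rat genome array of Agilent for each. For RNA preparation and labeling, the methods name an RNeasy kit and a Quick Amp kit, and the labels an mRNA isolation kit and a Low RNA Input kit. The processed intensities deposited by the authors came from Agilent Feature Extraction (version 9.1 in the labels, 10.5.1.1 in the file headers) and were background-corrected but not scaled between arrays. The deposited series table held the same values for 3 of 3 arrays within a relative tolerance of 1e-06.

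Control spots and outlier spots were left out, spots of a probe were averaged as log2 intensities, and the 75th percentile of each array was subtracted. A total of 196 probes lost all spots on at least 1 array. No spot was saturated. Probes were named through RefSeq accessions and a gene table of GRCr8. The probe with the highest mean log2 intensity over the arrays stood for its gene, even where another probe was brighter on a single array. Where 1 probe of a pair of arrays was dim, the bright scaled intensity was set against the dim value or the lowest intensity well above background on that array (30.1 in MFH1NR, 17.9 in MSCs and 29.4 in COS1NR), whichever was higher. A difference of 2-fold was the threshold, and no test was made. Precision was limited by having 1 array per cell type.

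Named are the 10 genes with the largest increases and decreases, the 10 furthest from both others in each direction, the 10 brightest detected on MFH1NR only and the 10 detected on both others only, and members of the lists. A few genes that these rules name are not reported here. The comparison, the lists and this rule were chosen with earlier results of these data known. Neighboring genes and upstream sequences were examined after the values had been seen. A planned normexp correction of the mean spot intensity was not run, and the median spot intensity was used in its place, with an offset of 50, chosen after seeing the data. The counting step was tested on simulated data. Python 3.11.15, numpy 2.4.6, pandas 2.3.3, matplotlib 3.10.9, R 4.3.3 and limma 3.58.1 were used.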

Additional observations from a re-analysis of the deposited data

Results flagged for a closer look

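Among the genes well above background on all 3 arrays, 102 lay at least 2-fold from MSCs in opposite directions in the sarcoma lines, 47 higher in MFH1NR and lower in COS1NR and 55 the reverse. With 1 array per line, the difference between the lines was not tested. The 4 genes with the largest opposed values in each direction are given here.

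Reep2, a shaping protein of the endoplasmic reticulum, had a log2 ratio to MSCs of 3.32 in MFH1NR and -2.91 in COS1NR. Casp1, the protease that processes interleukin 1 beta, had 2.61 and -3.29. Snai2, a repressor in mesenchymal transition, had 2.47 and -2.71. Lrrn4cl had 2.13 and -2.11.

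In the reverse direction, Rbp4, the carrier of retinol in blood, had a log2 ratio of -4.17 in MFH1NR and 3.94 in COS1NR. Ampd3, an AMP deaminase, had -4.26 and 2.80. Vil1, the actin bundler villin, had -2.50 and 3.13. Naprt, an enzyme of NAD synthesis from nicotinic acid, had -3.91 and 2.36.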

How the results depend on the processing

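No paired analysis was possible because there was 1 array per group, and no array could be left out. Without scaling between arrays, 4063 genes were higher and 1273 lower in MFH1NR than in MSCs, and 807 were higher and 229 lower in MFH1NR alone. Scaling by spike-in probes gave 3297 higher, and 1324 higher and 193 lower in MFH1NR alone. Genes well above background on all 3 arrays gave 1283 lower and 224 higher in MFH1NR alone, and a 3-fold threshold 992 higher and 229 higher in MFH1NR alone. The other counts stayed within 1.5 times, and 16 to 20 lists, 19 in the report, had a median of -1 or less relative to all genes. These settings moved the median log2 ratio of all genes by 0.76 without scaling, 0.52 with spike-in probes and 0.22 with median scaling. Of the genes at least 2-fold apart, 47.3% were higher in MFH1NR, against 76.1% without scaling, 69.1% with spike-in probes and 57.3% with median scaling. Relative to all genes, the median of adipocyte markers was 0.54 over genes above background on all 3 arrays, and without a filter on dim probes those of B cell and skeletal muscle markers were 0.04 and -0.0096, of germline genes 0.59 (4.74 with the filter), of Hox genes 0.24 (2.53) and of other developmental factors -0.02 (-1.38). Of 428 named genes at least 2-fold apart, 0 changed direction under the alternatives that recompute the ratio (258 genes for the one limited to genes above background on all 3 arrays), and 67 came within 2-fold without scaling, 48 with spike-in probes, 47 with normexp, 27 with median scaling, 22 with quantile normalization and 12 with the mean of all probes. No alternative put another probe of a gene in place of its first. Other probes did reverse some directions, as for Col9a1 (-3.61 on the first and 1.14 on the second) and Anxa3 (1.66 on the first and -1.45 on the third). By list, examples of counts that moved are the higher genes of oxidative phosphorylation (4, and 23 without scaling) and axon guidance (8, and 2 with normexp) and the lower lysosomal genes (13, and 6 without scaling). Limited to genes well above background on all 3 arrays, lower macrophage markers numbered 8 in place of 18, growth factors and receptor kinases 15 in place of 25, chemokines 11 in place of 20 and BMP and TGF-beta genes 6 in place of 13, and higher Wnt genes 0 in place of 6, since fewer genes were measured. The cause of these shifts was not tested. Background limits all ratios of dim genes to bounds.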

Other observations

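Other stretches of neighboring genes, chosen after the values were seen, differed in MFH1NR from both other arrays. Over 15 neighboring genes of chromosome 4, from Atp6v1f to Mkln1, the median log2 ratio was 2.02 to MSCs and 1.30 to COS1NR, and 9 genes were at least 2-fold higher than on both others. An overlapping stretch, from Klhdc10 to Bpgm, was lower in MSCs than in both lines, with medians of -1.38 to COS1NR and -1.74 to MFH1NR, so part of this difference was shared with COS1NR. Over 15 genes of chromosome 11, from Cpox to Cblb, the medians were 1.35 and 1.27, with 7 such genes. Lower in MFH1NR were 15 genes of chromosome 19, from Terf2ip to Mbtps1, with medians of -1.50 and -1.37 and 7 genes at least 2-fold lower than on both others. On chromosome 20, from Wasf1 to Cd24, the medians were -1.23 and -1.13, with 6 such genes. Genes dim on both arrays of a pair entered these medians as 0.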
